A study of Drosophila melanogaster with 42 samples.

Results

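The comparison described here asked what the male isoform of Doublesex changed in the heads of chromosomally female (XX) *Drosophila melanogaster*. It rests on 8 head arrays of the 42 arrays in the series. In 4 of them *dsxD* pseudomales were hybridized against Canton Special (CS) wild-type females, and in the other 4 XX flies null for *dsx* were hybridized against CS females. The *dsxD* pseudomales carried one chromosome with *dsxD* and *Sb* over the *dsx m+r15* null allele, so that only the male isoform, DSX-M, was made. The *dsx* null XX flies carried *dsx d+r3* over the same *dsx m+r15* allele and made no functional DSX. Both genotypes carried an X chromosome marked with *y*, *w* and a *ubi-gfp* insertion. They differed in the other copy of chromosome 3 (*dsxD*, *Sb* in pseudomales and *dsx d+r3* in nulls) and, as the genotypes are written, in the second X. DSX-M and the rest of these chromosomes therefore cannot be told apart in this contrast. RNA came from pools of about 100 heads of young adults, 0 to 24 h old by the labels and frozen at 8 to 24 h after eclosion by the study's methods, and nothing states whether the CS female extracts were shared between arrays. Each array has 1 replicate number, but separate cultures are not described, so the p-values measure the spread between these arrays, which may be partly technical.

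Members were the probes with 3 or more values in each genotype, 6970 of the 16320 probes on the long-oligonucleotide array. Each array gave 1 log2 ratio per probe, here turned to mutant over CS female, so that 0 is the CS female level. The difference of the group means is then the *dsxD* pseudomale over *dsx* null XX ratio. Between 50.7% and 66.5% of the probes had a value on each array. In every genotype replicates 1 and 2 had the mutant RNA in the Cy3 dye, and replicates 3 and 4 had it in Cy5. No probe for *dsx* itself had a value on any *dsxD* array and only 1 value came from the null arrays, so the mutated gene could not be used to check the labels. Probes for *y* and *Sb* had no values on these arrays.

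Doublesex is a zinc-finger transcription factor at the end of the somatic sex determination hierarchy. Its transcript is spliced by Transformer and Transformer-2 into a female form in females and into a male form by default in males. Both isoforms bind the same DNA sequence and differ in their carboxyl ends, and a fly without *dsx* develops as an intersex. The yolk protein genes, made in the fat body of females and taken up by oocytes, are its best known targets: the female form activates them and the male form represses them.

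Past the threshold of limma's moderated test at a Benjamini-Hochberg adjusted p below 0.15, the cutoff the study used, were 401 of the 6970 probes (5.75%). Of these, 126 were higher in *dsxD* pseudomales (1.81%) and 275 were lower (3.95%). The lower probes also had the larger changes, with 106 of the 132 probes that changed over 2-fold lower and 26 higher in pseudomales. The median difference over all tested probes was 0.02 on the log2 scale and the median standard error (SE) was 0.18. Among the 401 probes, 377 had arrays of the 2 genotypes that did not overlap, as had 814 of all tested probes (11.7%). The count varied with the arrays used and with the dye. It was 241 without null replicate 1, 246 without *dsxD* replicate 2 and 259 without null replicate 3. It was 1023 (447 higher and 576 lower) with dye orientation as a covariate and 286 (118 and 168) by the methods' t-test. In limma an unadjusted p below 0.05 was reached by 984 of the 6970 probes. Gene group counts given below for these settings have these totals as their background.

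Set against the CS female level, most of these probes departed farther from it in *dsx* null flies than in *dsxD* pseudomales. Of the 275 lower probes, 251 were above the female level in nulls, and the null mean was the nearer to it for 85. Their median was -0.24 in *dsxD* pseudomales and 0.61 in *dsx* nulls. Of the 126 higher probes, 108 were below the female level in nulls, and the null mean was the nearer for 47. Their median was 0.20 in *dsxD* pseudomales and -0.44 in *dsx* nulls. The female level lay between both genotypes for 176 lower and 72 higher probes. These probes were selected on the difference between the genotypes, which itself favours opposite sides of the female level. The same counts were not made over all tested probes.

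**Figure D1:**
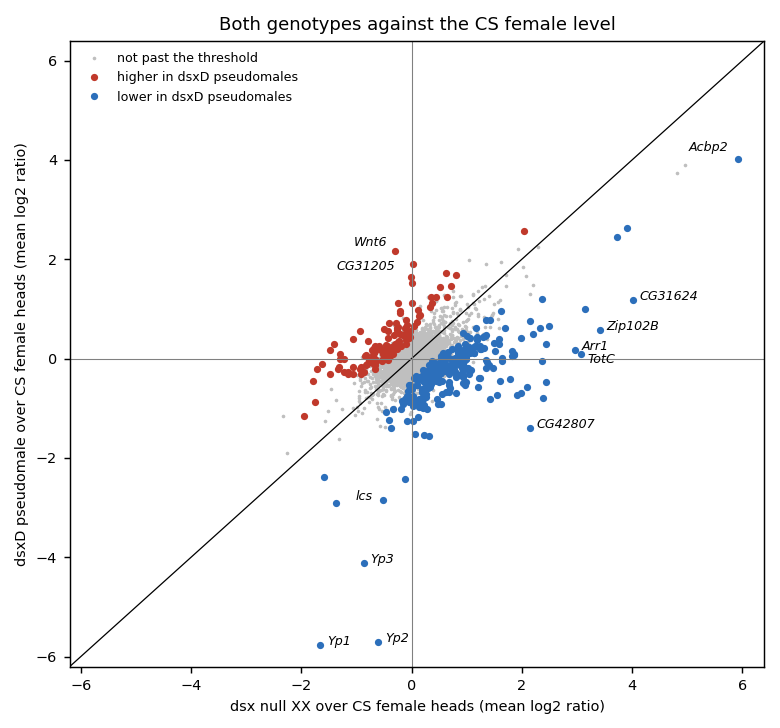
Mean log2 ratio to CS female heads in *dsxD* pseudomales (vertical axis) and in *dsx* null XX flies (horizontal axis) for the 6970 tested probes. Red points are the 126 probes higher and blue points the 275 probes lower in *dsxD* pseudomales at an adjusted p below 0.15, the diagonal is equality, and the yolk protein genes lie alone at the bottom.

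The 3 yolk protein genes on the X chromosome were among the most changed genes, and all were lower in *dsxD* pseudomales. *Yp1* stood at -7.15, -4.58, -5.72 and -5.59 on the 4 pseudomale arrays, against -1.10, -2.27, -1.61 and -1.63 on the *dsx* null arrays. *Yp2* stood at -6.54, -6.02, -5.28 and -4.98 in pseudomales, against -0.27, -1.22, -0.46 and -0.45 in nulls. *Yp3* stood at -4.47, -3.62, -3.84 and -4.56 in pseudomales, against -0.34, -1.71, -0.84 and -0.57 in nulls. For each gene all pseudomale arrays lay below all null arrays, and both genotypes lay below the CS female level on every array. The differences were -4.11 ± 0.45 (SE) for *Yp1*, -5.11 ± 0.33 for *Yp2* and -3.25 ± 0.31 for *Yp3*, or 17.3-, 34.4- and 9.53-fold, with limma adjusted p values of 0.0011, 2.7e-05 and 0.000443. Wild-type males were set over females of their own strain on 8 further arrays, 4 of CS and 4 of Berlin, another wild-type strain. The same probes averaged -6.64, -7.02 and -5.48 on these arrays, with *Yp2* at -5.95 ± 0.88 (SD, n = 4) in CS and -8.10 ± 0.38 in Berlin.

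**Figure D2:**
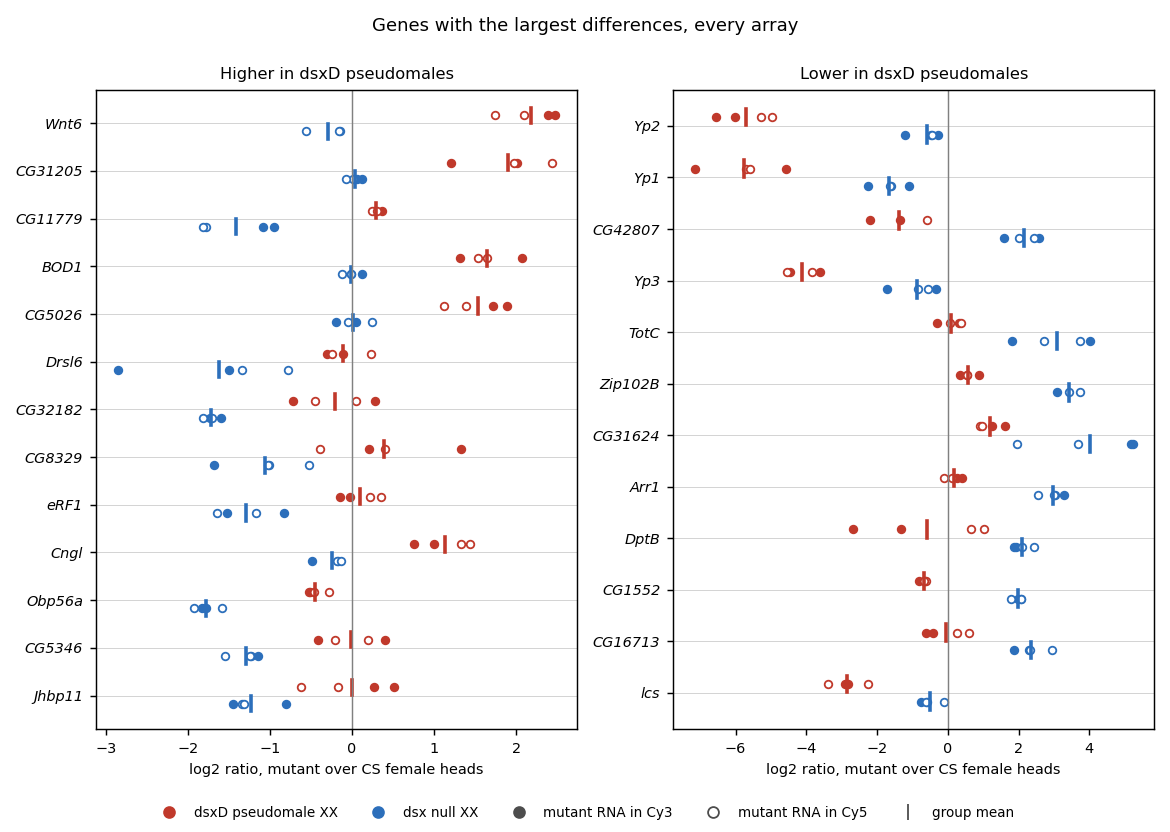
Log2 ratio of mutant over CS female heads on every array for the named genes with the largest differences, 13 higher (left) and 12 lower (right) in *dsxD* pseudomales; red is *dsxD*, blue is *dsx* null, filled and open points have the mutant RNA in Cy3 and in Cy5, and ticks are group means. For *Wnt6*, *CG31205*, *BOD1* and *CG5026* the null arrays lie near 0, whereas for *Arr1*, *TotC* and *Zip102B* the pseudomale arrays do.

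A second group of lower genes stood far above the CS female level in *dsx* nulls, and several of them stood near it in *dsxD* pseudomales. *Arr1*, one of the arrestins that shut off rhodopsin signalling in photoreceptors, read 0.26, 0.40, -0.12 and 0.11 in pseudomales, against 3.02, 3.28, 2.56 and 2.998 in nulls. Its difference was -2.80 ± 0.18 (SE, adjusted p = 2.7e-05), a 6.96-fold lower level, and its neighbour in function *Arr2* differed by -1.61 ± 0.15 (adjusted p = 0.000429). *Zip102B*, which encodes a zinc transporter of the ZIP family, read 0.88, 0.35, 0.54 and 0.53 in pseudomales, against 3.09, 3.74 and 3.41 on the 3 null arrays with a value. No array of one genotype reached the range of the other for these 3 genes. *CG1552*, a gene of unassigned role here, read between -0.82 and -0.63 in pseudomales, against 1.80 to 2.07 in nulls. Its small spread gave the lowest p of all tested probes, with a difference of -2.67 ± 0.13 (SE, adjusted p = 4e-06). *CG42807* crossed the female level in opposite directions, at -2.21, -1.36 and -0.59 in pseudomales against 1.60, 2.57, 2.42 and 2.01 in nulls, and differed by -3.54 ± 0.36. A second probe for *CG42807* differed by 0.15 ± 0.21 (adjusted p = 0.837), so the 2 probes disagreed. *CG31624* read 1.62, 1.26, 0.92 and 0.96 in pseudomales, against 5.17, 5.22, 1.97 and 3.67 in nulls, and *CG16713* differed by -2.42 ± 0.29. *CG31624* had the widest null arrays of these genes, and its lowest null array was still above every pseudomale array.

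The arrestins belong to the visual system, whose other genes moved in both directions. Among 35 tested probes for phototransduction genes 5 fell and 1 rose (4 and 1 by the methods' t-test), against 3.95% lower and 1.81% higher over all tested probes. Their median difference was -0.06, against 0.02 over all tested probes. Lower, besides both arrestins, were *santa-maria*, a scavenger receptor for carotenoid uptake, at -0.94 ± 0.17 (SE), *rdgA*, a diacylglycerol kinase, at -0.88 ± 0.20, and *Ggamma30A*, a G protein subunit of the photoreceptors, at -0.43 ± 0.13. *Rab32*, the *lightoid* GTPase of pigment granule formation, rose by 0.58 ± 0.14 (adjusted p = 0.053). Of the 6 photoreceptor markers with a test, only *Arr1* and *Arr2* passed it. The others, *trp*, *trpl*, *inaD* and *chp*, differed by -0.18, 0.15, 0.17 and -0.04. Averaged over the 6 markers, pseudomale arrays ranged from 0.93 to 1.25 and null arrays from 1.57 to 2.00. *Arr1* and *Arr2* carried this gap, since the other markers had small differences of both signs. The median difference of the 6 markers was -0.11. Because these are whole heads, fewer cells of a type and less RNA per cell cannot be told apart.

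Among the 18 tested probes for eye pigment genes 1 fell and 2 rose, against 3.95% lower and 1.81% higher over all tested probes. *st*, a transporter of pigment precursors, read -0.25, -0.48, 0.35 and 0.26 in pseudomales, against 1.62, 0.83, 1.47 and 1.45 in nulls, a difference of -1.38 ± 0.23 (SE, adjusted p = 0.00985). *pr*, an enzyme of pteridine synthesis, differed by 0.76 ± 0.18 (adjusted p = 0.052), and the other gene that rose was *Rab32*. *e*, which conjugates dopamine to beta-alanine in cuticle and glia, fell by 1.06 on the log2 scale. Of 17 tested probes for dopamine and cuticle tanning genes *e* was the 1 that fell, and 0 rose. So few calls give no direction for the pigment or the tanning genes as a group.

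Among the listed humoral immunity genes, those that passed the test were lower in *dsxD* pseudomales with 1 exception. Of 21 tested probes for antimicrobial peptides, Bomanins, peptidoglycan recognition proteins and Turandot genes, 11 fell and 1 rose. Over all tested probes 3.95% were lower and 1.81% higher. By the methods' t-test 5 of the 21 fell and 1 rose, and their median difference was -0.999. *TotC*, a secreted stress-induced Turandot protein, read 0.31, -0.32, 0.36 and 0.06 in pseudomales, against 4.03, 1.82, 3.74 and 2.71 in nulls, and differed by -2.97 ± 0.41 (SE, adjusted p = 0.00362). *BomS4*, a short Bomanin peptide, read -0.46, 0.17, 0.48 and 1.00 in pseudomales, against 2.40, 2.38, 2.37 and 2.61 in nulls, a difference of -2.14 ± 0.26. *Drs*, the antifungal peptide Drosomycin, read -0.96, -0.22, 0.60 and 0.98 in pseudomales, against 1.46, 1.83, 2.15 and 1.96 in nulls, a difference of -1.75 ± 0.36 (adjusted p = 0.03). The null arrays of these 3 genes all stood above the CS female level and above every pseudomale array, whereas the pseudomale arrays stood on both sides of the female level. *IM33* (-1.78 ± 0.24), *BomS2* (-1.50 ± 0.25), *BomT2* (-1.29 ± 0.21), *Mtk* (-1.67 ± 0.39) and *Drsl1* (-1.67 ± 0.42) also fell.

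For some of the immune genes, though not for *TotC*, the spread among pseudomale arrays followed the dye. Dye and replicate number cannot be told apart here, since replicates 1 and 2 had the mutant in Cy3 and replicates 3 and 4 in Cy5. *DptB*, an antibacterial Diptericin, read -2.69 and -1.31 in the Cy3 pseudomale arrays and 0.66 and 1.03 in the Cy5 ones, against 1.94, 1.88, 2.44 and 2.10 in nulls. Its difference was -3.91 among the arrays with the mutant in Cy3 and -1.42 among those with it in Cy5 (all arrays -2.67 ± 0.67, adjusted p = 0.0687). *AttB*, the antibacterial Attacin-B, gave -3.59 and -0.87 in these orientations, and *TotC* -2.93 and -3.01. *AttB* was the gene among these whose genotypes overlapped, with one pseudomale array at 1.36 and one null array at 1.26. The direction was therefore the same in both orientations, with a size that differed between them for *DptB* and *AttB*. Averaged over the 18 probes with a value on every array, the group stood between -0.79 and 0.38 in pseudomales and between 0.85 and 1.12 in nulls. Drosomycin-like genes did not all follow *Drs*, and *Drsl5* rose by 1.00 ± 0.18. *Drsl6*, which also rose and passed, was not among the 21 listed probes. It was one of the largest changes upwards and read -0.30, -0.11, 0.23 and -0.25 in pseudomales against -1.50, -2.86, -1.34 and -0.78 in nulls.

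**Figure D3:**
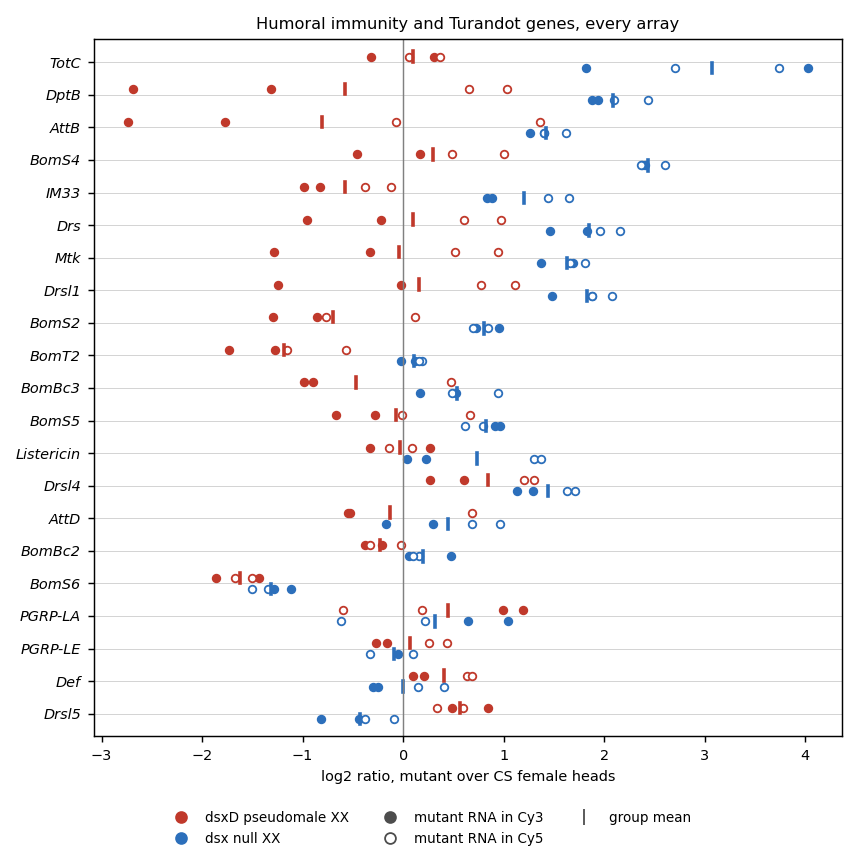
Log2 ratio of mutant over CS female heads on every array for the 21 tested humoral immunity and Turandot genes, ordered by their difference from the most lowered at the top. The *dsxD* pseudomale arrays (red) with the mutant in Cy3 (filled) mostly lie to the left of those with it in Cy5 (open), and for the first 10 genes other than *AttB* all red points lie left of the *dsx* null arrays (blue).

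Genes of the fat body and of lipid and sugar metabolism that passed the test were all lower in pseudomales. Of 7 tested fat body markers 2 fell (0 by the methods' t-test), with a median of -0.72. *Lsp2*, a larval serum protein, differed by -1.17 ± 0.28 (SE) and *apolpp*, the lipophorin apolipoprotein that carries lipid in the haemolymph, by -1.31 ± 0.34. Of 30 metabolic probes 5 fell and 0 rose by limma, with a median of -0.18, against 3.95% lower and 1.81% higher over all tested probes. At an unadjusted p below 0.05 9 were lower and 0 higher, against 984 of all 6970 tested probes in either direction. Past the threshold 8 were lower and 0 higher with dye as a covariate, against 576 and 447 of all tested probes. By the methods' t-test 2 were lower and 0 higher, against 168 and 118. *Apoltp*, a lipid transfer particle protein, read -0.18, -0.53, -0.21 and -0.32 in pseudomales, against 1.00, 0.54, 0.62 and 0.57 in nulls (-0.99 ± 0.15, adjusted p = 0.00597). *Pepck1*, an enzyme of gluconeogenesis, differed by -1.03 ± 0.23 and *tobi*, a glucosidase regulated by insulin, by -0.73 ± 0.18. *Acbp2*, an acyl-CoA binding protein, was far above the CS female level in both genotypes, at 3.32, 4.73, 3.99 and 4.05 in pseudomales and 6.37, 5.98 and 5.43 in nulls (-1.90 ± 0.32). The fat body markers averaged 0.02 to 0.56 on pseudomale arrays and 0.51 to 1.39 on null arrays, so these ranges overlapped.

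Of the detoxification genes, cytochrome P450 enzymes oxidise foreign compounds, and glutathione S-transferases and UDP-glycosyltransferases conjugate them. Of 43 tested P450 probes 8 fell and 1 rose (6 and 1 by the methods' t-test), against 3.95% lower and 1.81% higher over all tested probes, with a median of -0.14. *Cyp309a1* read 0.41, 0.40, -0.07 and -0.45 in pseudomales, against 1.36, 2.12, 1.96 and 1.98 in nulls (-1.78 ± 0.23, SE, adjusted p = 0.00255). *Cyp28d1* (-0.95 ± 0.14), *Cyp6w1* (-1.01 ± 0.15) and *Cyp28a5* (-0.95 ± 0.15) also fell, and *Cyp28a5* was the one of them that stood below the female level in pseudomales and near it in nulls. Of 26 glutathione S-transferase probes 3 fell and 1 rose (2 and 0 by the methods' t-test). *GstE6* read 1.90, 2.30, 2.84 and 2.72 in pseudomales, against 3.83, 3.20, 3.92 and 3.98 in nulls, while *GstE8* read 0.98, 1.60, 2.19 and 2.14 in pseudomales against 0.40, 0.36, 1.05 and 0.70 in nulls. These genes lie in one family and moved in opposite directions, at -1.29 ± 0.24 and 1.10 ± 0.27, and both stood above the CS female level on every array. Related members may share signal between probes, which was not tested. Of 8 UDP-glycosyltransferase probes 0 passed in limma or by the methods' t-test, 1 was higher at an unadjusted p below 0.05 and with dye as a covariate, and 4 of the 8 differences were positive.

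A few lower genes departed from the female level in pseudomales rather than in nulls. *lcs* read -2.83, -2.90, -2.25 and -3.39 in *dsxD* pseudomales, against -0.59, -0.76, -0.10 and -0.61 in nulls, and differed by -2.33 ± 0.23 (SE, adjusted p = 0.00072). *CG8539* read -2.12, -2.45 and -2.69 in pseudomales, against -0.12, -0.49, 0.33 and -0.17 in nulls. *NimC4*, a receptor for the uptake of apoptotic cells by phagocytes, read -2.25, -1.64, -0.73 and -1.62 in pseudomales, against 0.71, -0.02, 1.18 and -0.61 in nulls. Pseudomale arrays were the lower ones without overlap for each of these genes, with a narrow gap for *NimC4*. *NimC4* was the single haemocyte marker of 4 tested to pass in limma, while 3 were lower at an unadjusted p below 0.05, 2 passed with dye as a covariate and 0 passed by the methods' t-test. Of all 6970 tested probes 275 were lower in limma, 984 had an unadjusted p below 0.05 and 1023 passed with dye as a covariate. The 4 markers together averaged -1.18 to -0.34 in pseudomales and -0.36 to 0.47 in nulls. *glob1*, a haemoglobin, stood below the female level in both, at -2.60 to -2.13 in pseudomales and -1.83 to -1.26 in nulls.

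The same 2 patterns held among the genes most raised in *dsxD* pseudomales. *Wnt6*, a secreted Wnt ligand, read 2.48, 2.38, 1.74 and 2.09 in *dsxD* pseudomales, against -0.15, -0.56 and -0.16 on the 3 null arrays with a value. *CG31205* read 1.21, 2.01, 2.43 and 1.97 in pseudomales, against 0.06, 0.12, 0.02 and -0.07 in nulls. *BOD1*, named for the orientation of chromosomes in cell division, read 2.07, 1.31, 1.64 and 1.53 in pseudomales, against -0.01, 0.12, -0.13 and -0.02 in nulls. All pseudomale arrays of these genes were above the CS female level and all null arrays close to it. The differences were 2.47 ± 0.21 (SE, 5.53-fold, adjusted p = 0.00043) for *Wnt6*, 1.87 ± 0.22 for *CG31205* and 1.65 ± 0.17 for *BOD1*. *CG5026* (1.51 ± 0.18), *Cngl*, a relative of the cyclic nucleotide-gated channels (1.38 ± 0.17), and *ppk26*, a sodium channel subunit of nociceptive neurons (0.65 ± 0.13), had the same pattern. The probes of *Wnt6* and *CG5026* have consecutive numbers, 9699 and 9700, as have those of *Cpr49Ae* and *ppk26*, 9732 and 9733. Whether probes with consecutive numbers share signal was not tested. A second probe for *Cngl* differed by -0.09 ± 0.16 (adjusted p = 0.871), unlike the first. A second probe for *CG5026* had too few values for a test, and its arrays read -0.04, -0.22 and 0.35 in pseudomales, against -0.05 and 0.13 in nulls, so the 2 probes of this gene disagreed as well.

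Heads of XX pseudomales mutant for *tra*, measured on 4 further arrays against CS females, give these genes another context, since they make DSX-M from unaltered *dsx* alleles. They carried *tra1* over a deficiency of the *tra* region, Df(3L)st-j7, and the same marked X over *w* as the *dsxD* pseudomales. In *tra* pseudomales *Wnt6* averaged 2.06, *BOD1* 1.31, *CG5026* 1.27, *Cngl* 1.02, *ppk26* 1.02 and *lcs* -2.94, whereas *CG31205* averaged -0.09. In wild-type heads of both strains males over females averaged 0.07 for *Wnt6*, -0.03 for *CG5026*, -0.17 for *Cngl*, -0.04 for *ppk26* and 0.05 for *CG31205*, and 0.02 for *BOD1*, with values from Berlin only. The wild-type arrays of *lcs* varied widely, with a mean of -1.46 ± 0.41 (SD, n = 3) in CS and 0.75 ± 2.19 (n = 4) in Berlin. *CG31205* thus stood near 0 in both of these other comparisons, and the remaining genes stood away from the female level in both kinds of pseudomale. Of the lowered genes, *TotC* averaged 1.52 and *Cyp309a1* 1.42 in *tra* pseudomales, against 0.10 and 0.07 in *dsxD* pseudomales. *BomS4* and *Drs* averaged 0.13 and 0.35 in *tra* pseudomales, against 0.30 and 0.10 in *dsxD* ones. For many of a set of genes that includes *TotC*, the study proposes induction by infection or stress, which was not tested here.

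In the other pattern the higher value went with a level below the female one in *dsx* nulls. *CG11779* read 0.36, 0.27, 0.25 and 0.31 in pseudomales, against -0.95, -1.08, -1.79 and -1.81 in nulls (1.70 ± 0.21, SE, adjusted p = 0.00166). *eRF1*, the release factor that ends translation, read -0.15, -0.03, 0.35 and 0.22 in pseudomales, against -0.83, -1.52, -1.17 and -1.64 in nulls (1.39 ± 0.20). *Jhbp11*, of the takeout family of secreted hydrophobic ligand carriers, read 0.52, 0.27, -0.62 and -0.17 in pseudomales, against -0.81, -1.45, -1.34 and -1.31 in nulls (1.23 ± 0.25). The pseudomale arrays of these genes bracketed or closely flanked the female level, and no null array reached it. *CG32182* (1.504 ± 0.21), *CG8329* (1.45 ± 0.34) and *CG5346* (1.28 ± 0.19) were of this kind too.

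Odorant-binding protein genes that passed the test all rose. Of 20 tested probes 4 rose and 0 fell by limma, with a median of 0.16, against 1.81% higher and 3.95% lower over all tested probes. At an unadjusted p below 0.05 6 were higher and 1 lower, against 984 of all 6970 tested probes in either direction. Past the threshold 7 were higher and 1 lower with dye as a covariate, against 447 and 576 of all tested probes. By the methods' t-test 2 were higher and 0 lower, against 118 and 168. *Obp56a*, the most changed, read -0.52, -0.53, -0.46 and -0.28 in pseudomales, against -1.83, -1.78, -1.59 and -1.92 in nulls (1.33 ± 0.13, SE, adjusted p = 0.00071). *Obp56e* (0.85 ± 0.16), *Obp56g* (0.69 ± 0.21) and *Obp19d* (0.59 ± 0.18) also rose, and a second probe for *Obp19d* differed by 0.09. Both genotypes were below the CS female level for *Obp56a* and *Obp56e*, the nulls more so.

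Neuropeptide genes had a median difference of 0.30 over 21 tested probes, against 0.02 over all tested probes, and 18 of the 21 differences were positive. Of the 21 probes 3 rose and 1 fell, against 1.81% higher and 3.95% lower over all tested probes. With dye as a covariate 7 rose, against 447 of all 6970 tested probes, and 0 rose by the methods' t-test, against 118. *Pdf*, the circadian neuropeptide of clock neurons, read 0.19, 0.11, 0.18 and 0.24 in pseudomales, against -0.83, -0.68, -0.23 and -0.21 in nulls (0.66 ± 0.17, SE, adjusted p = 0.0682). *Capa* differed by 0.81 ± 0.22, *Ms*, which encodes myosuppressin, by 0.58 ± 0.17, and *CCHa2*, a peptide linked to nutrition, by -0.49 ± 0.14. The *Pdf* null arrays were lower with the mutant in Cy3 than in Cy5, and the differences within these orientations were 0.90 and 0.42. Of 8 neuronal and 7 glial marker probes 0 passed in limma, with medians of 0.12 and -0.07, and at an unadjusted p below 0.05 0 neuronal and 1 glial probe did (the same counts with dye as a covariate). The neuronal markers averaged -0.51 to -0.01 on pseudomale arrays and -0.48 to -0.21 on null arrays, and the glial markers -0.07 to 0.08 on pseudomale arrays and -0.08 to 0.13 on null arrays, so both overlapped. Of 32 probes for synaptic and transmitter genes 0 passed in limma and 2 had an unadjusted p below 0.05 (2 passed with dye as a covariate), and of 39 for ion channels 1 passed, *GluRIA*, a glutamate receptor subunit (0.68 ± 0.14). Of all 6970 tested probes 984 had an unadjusted p below 0.05 and 1023 passed with dye as a covariate.

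**Figure D4:**
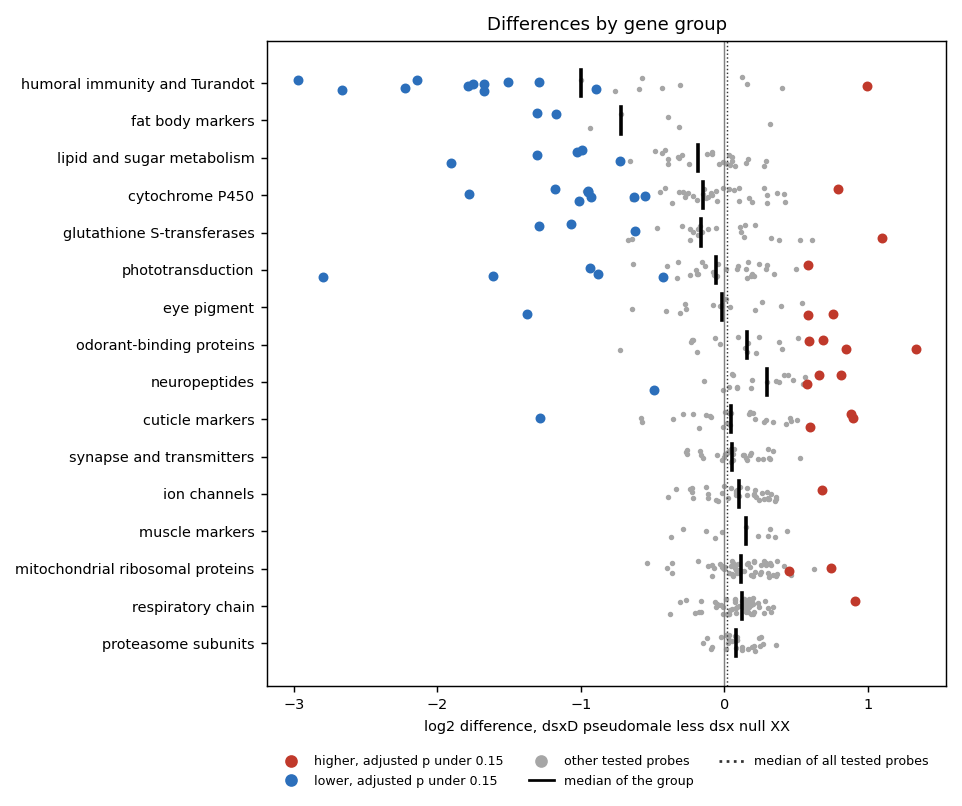
Log2 difference of *dsxD* pseudomales less *dsx* null XX heads (horizontal axis) for each tested probe of 16 gene groups. Red and blue points passed an adjusted p of 0.15, black bars are group medians, and the dotted line is the median of all tested probes; blue points dominate in the immunity, fat body and metabolic groups and red points in the odorant-binding and neuropeptide groups.

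Of 30 tested cuticle probes 3 were higher and 1 lower, against 1.81% higher and 3.95% lower over all tested probes. With dye as a covariate 7 were higher and 2 lower, against 447 and 576 of all 6970 tested probes. *Cpr49Ae* read 0.72, 0.64, 0.64 and 0.60 in pseudomales, against 0.05, -0.09, 0.09 and 0.16 in nulls, and *Cpr92F* differed by 0.89 ± 0.17 (SE). *Cpr72Ec* was above the female level in both genotypes, at 2.94, 2.99, 1.99 and 2.60 in pseudomales and 4.75, 3.80, 3.45 and 3.64 in nulls (-1.28 ± 0.30). Of 11 muscle, 28 proteasome and 16 heat shock probes 0 passed in limma, and 1, 0 and 1 had an unadjusted p below 0.05 (2, 0 and 1 passed with dye as a covariate). Of 57 respiratory chain probes 1 rose, *ND-15*, a subunit of complex I (0.91 ± 0.16). Of 60 probes for mitochondrial ribosomal proteins 2 rose, *mRpS10* and *mRpS26*, with a median of 0.11 against 0.02 over all tested probes. With dye as a covariate 11 rose, and 5 rose by the methods' t-test. Over all 6970 tested probes 1.81% were higher by limma without that covariate, 447 probes with it and 118 by the methods' t-test. *RpL28* and *RpS21*, of the cytoplasmic ribosome, rose by 0.85 ± 0.17 and 0.92 ± 0.21, out of 35 probes with a median of -0.02, and a second probe for *RpS21* differed by 0.07 ± 0.19. A second probe for *RpL28*, with too few null values for a test, read -0.10 to 0.33 in pseudomales and 0.15 and 0.16 in nulls.

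Of 7 tested probes for sex determination genes 0 passed in limma, 0 had an unadjusted p below 0.05, and 0 passed with dye as a covariate or by the methods' t-test. *tra* differed by 0.28 ± 0.33 (SE), *tra2* by 0.35 ± 0.19, *ix*, a partner of the female isoform, by 0.05 ± 0.26, and the probes for *fru* by -0.09 ± 0.18 and -0.27 ± 0.13. Of the 12 genes with a test that the study's text names as sex-differential or as targets of *dsx*, those that passed were the yolk protein genes, *Drs*, *Rab32* and *CG7607*. The study chose these genes in part on these arrays, so the list is not independent evidence of a direction. *CG7607* read -0.83, -1.15, -0.86 and -1.19 in pseudomales, against -0.36, -0.52, 0.03 and -0.48 in nulls (-0.67 ± 0.16, adjusted p = 0.0602). *fit*, a fat body gene expressed more in females, read 0.69, -0.67, -0.19 and -0.88 in pseudomales, against 1.31, -1.01, 2.04 and 0.37 in nulls, with null arrays on both sides of the pseudomale ones and a difference of -0.94 ± 0.57 (adjusted p = 0.546). *Cpn*, *boss* and *sxe2* stood above the female level in both genotypes and differed by 0.09, -0.13 and 0.04. *Cyp4d21* had 3 pseudomale values with a mean of 1.61 and no null value, so it could not be compared.

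The matching contrast in chromosomally male (XY) heads set CS males, which make DSX-M from unaltered alleles, over XY flies null for *dsx* with the same *dsx d+r3* and *dsx m+r15* alleles, on 4 arrays that none of the XX values use. The males and nulls of this contrast also differ in stock. There 2113 of 8210 probes passed (25.7%), with 1026 without null XY replicate 4, 1248 without replicate 2 and 4147 with dye as a covariate. Of the 401 XX probes, 370 had a test in XY heads. Of these, 332 (89.7%) had the same sign, against 66.7% of the probes that did not pass in XX heads, and 262 (70.8%) passed in the same direction, against 19.6%. Both null groups carry the same *dsx* alleles, so these shares do not come from unrelated genotypes.

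The shares differed with the direction of the XX change, a difference that was not tested. Of 259 lower probes with an XY test, 249 (96.1%) had the same sign and 210 (81.1%) passed in the same direction. Of 111 higher probes 83 (74.8%) had the same sign and 52 (46.8%) passed in the same direction. In the opposite direction 4 of the lower probes (1.54%) and 11 of the higher ones (9.91%) passed, against 4.72% of all tested probes. The yolk protein genes were lower in CS males than in XY nulls, at -4.83, -5.70 and -4.96 on the log2 scale for *Yp1*, *Yp2* and *Yp3*. *TotC* (-4.33), *Arr1* (-2.42), *CG16713* (-3.52), *Drs* (-2.31) and *Cyp309a1* (-1.74) were lower too, and *Obp56a* (1.17), *eRF1* (1.08) and *CG32182* (1.16) were higher. These genes all passed in XY heads with limma adjusted p values from 4.1e-05 to 0.00475. Other named genes raised in XX heads were lower in CS males than in XY nulls and passed there. They were *CG31205* (-0.41), *Jhbp11* (-0.58), *Rab32* (-0.55), *pr* (-0.54), *RpS21* (-1.66), *GstE8* (-0.95) and *Cpr92F* (-0.57). Some genes named by the study passed in XY heads without passing in XX heads, with *Cpn* (-0.67), *boss* (-0.73) and *fit* (-4.41) lower in CS males and *sxe2* (0.60) higher. Of the 14 probes of that list with an XY test, 10 were lower and 3 higher, and the study chose the genes in part on the XY arrays. The 401 XX probes, where at least 6 wild-type arrays gave a value, had the sign of wild-type males over females in 243 of 350 cases (69.4%), against 60.3% of all tested probes. Of the lower probes 183 of 242 had this sign (75.6%), and of the higher ones 60 of 108 (55.6%).

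**Figure D5:**
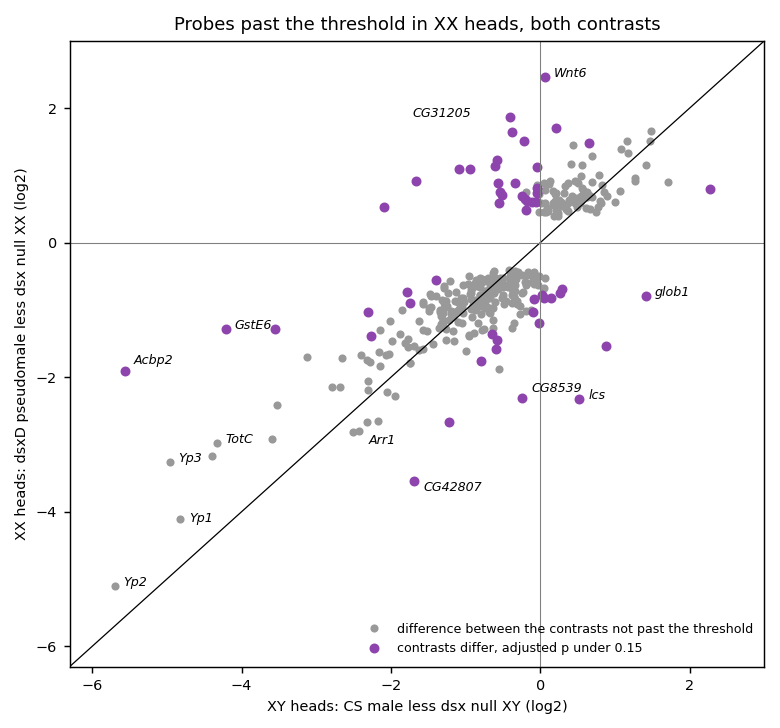
Log2 difference in XX heads (*dsxD* pseudomale less *dsx* null, vertical axis) and in XY heads (CS male less *dsx* null, horizontal axis) for the 370 probes past the threshold in XX heads with a value in both. Purple points are the 54 probes whose differences themselves differed at an adjusted p below 0.15, the diagonal is equality, and the purple points above the horizontal zero line lie mostly at or left of the vertical one.

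The difference between the contrasts was tested directly as XX less XY. Of 6468 probes 144 passed (2.23%), 96 with a more positive value in XX heads (1.48%) and 48 with a more negative one (0.742%). With the replicate block 294 passed (161 more positive and 133 more negative), and with dye as a covariate 478 (278 and 200), so the share of more positive calls was 66.7% without either term, 54.8% with the block and 58.2% with dye. Among the 370 probes 54 passed, 28 of the 111 higher and 26 of the 259 lower. *Wnt6* in XY heads read -0.02, -0.06, 0.09 and 0.24 in CS males over nulls, and its contrasts differed by 2.40 ± 0.23 (SE, adjusted p = 9.8e-05). *BOD1* had wide XY arrays, at -1.94, -0.44, -0.01 and 0.88. *CG31205* (2.28 ± 0.29), *BOD1* (2.03 ± 0.51), *CG5026* (1.74 ± 0.22), *CG11779* (1.49 ± 0.26) and *ppk26* (0.85 ± 0.16) also had more positive values in XX heads, and *lcs* (-2.85 ± 0.30) and *CG8539* (-2.06 ± 0.30) more negative ones. *GstE6*, *Acbp2* and *Cpr72Ec* fell in both contrasts and by more in XY heads, where CS males over nulls averaged -4.21, -5.56 and -3.55. *glob1* was lower in XX pseudomales and higher in XY males over nulls (1.41 ± 0.12).

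The changed probes were spread over the chromosome arms. Lower probes made up 3.67% of those tested on X, 5.62% on 2L, 4.17% on 2R, 2.56% on 3L and 3.97% on 3R, and higher probes 1.59% to 1.95% on these arms. On the small chromosome 4, 3 of 59 probes were lower and 0 higher. *dsx* lies on 3R. The genotypes differed in a copy of the whole chromosome 3, so in 3L as well as 3R, and, as written, in the second X. In gene order on Release 6 of the genome, in bins chosen after the values were seen, 0 of 19 probes within 25 genes of *dsx* passed in limma, 2 of 52 did at 26 to 100 genes, 7 of 191 at 101 to 300 genes and 76 of the 1175 farther away (6.47%). At an unadjusted p below 0.05 there were 3 of 19 in the nearest bin and 182 of 1175 in the farthest. With dye as a covariate 3 and 188 passed in these bins, and by the methods' t-test 2 and 52.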

How the data were processed

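The authors hybridized mutant and wild-type head RNA to 2-colour spotted oligonucleotide arrays, kept features above background, and normalized them by lowess in Bioconductor. The deposited value is a log2 ratio of CS wild type over mutant; software versions are not given in the sources used here. Probes were designed on an older release of the genome, and no probe coordinates were used. Its sign was turned for the XX arrays, so that each value is mutant over CS female. The direction follows from the labelled channels, which hold the CS animal in the same place in both dye orientations. No intensities were used, so signal over background is unknown, and the number of arrays (4 per genotype) limits the precision.

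Group means were compared with limma 3.58.1 in R 4.3.3 over all probes with 3 or more values per genotype, with no block, on 4 against 4 arrays, and p values were adjusted by Benjamini-Hochberg (threshold 0.15). The XY contrast and the XX less XY difference were fitted the same way. What is called the methods' t-test is a two-sided t-test with pooled variance on the same values, adjusted by Benjamini-Hochberg in place of the study's positive false discovery rate. The scripts were tested on simulated data. Gene names came from the platform annotation, updated through NCBI gene numbers (12273 probes) or accessions (116), and 524 kept an older symbol; 3407 of 16320 probes have no gene name here and 0 have several. Named genes were the 15 largest differences in each direction with no overlap, genes the study's text names, and up to 4 members of each gene list; *Mtk*, *Drsl1*, *AttB*, *BomS2*, *Drsl5*, *Ggamma30A*, *trp*, *trpl*, *inaD* and *chp* were added after their values were seen. Members and lists were chosen with earlier results of these data known. The alternatives changed the filter, the scaling, the variance model, the dye term, the replicate block, the threshold and the arrays used.

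Replicate numbers were checked as pairs: deviations from the group means correlated at 0.209 to 0.418 between *dsxD* and null arrays of the same number, at 0.175 to 0.346 between other numbers of the same dye, and at -0.42 to -0.202 between opposite dyes. Number and dye orientation are confounded, so the numbers count as pairs by this check, but they may mark the dye alone. The log2 ratios themselves correlated at 0.675 to 0.807 between *dsxD* arrays of the same dye and at 0.134 to 0.348 between opposite dyes. Between null arrays they correlated at 0.707 to 0.792 and 0.489 to 0.595. Arrays of *dsxD* and null with the same dye correlated at 0.272 to 0.509. The dye thus limits every group mean, most of all for *dsxD*.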

Additional observations from a re-analysis of the deposited data

Results flagged for a closer look

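Single arrays stood apart from the other 3 of their genotype for a few named genes, which chance does in about 1 in 20 groups. These were *Cngl* on *dsx* null replicate 2 (-0.49), *RpL28* on *dsxD* replicate 4 (0.86), *BomS4* on null replicate 4 (2.61), *elav* on null replicate 4 (-0.44), *ZnT35C* on null replicate 1 (2.19) and *ND-15* on *dsxD* replicate 1 (-0.33).

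For 27 named probes the XX difference and the XY difference themselves differed in limma at an adjusted p below 0.15. XX less XY was positive for *Wnt6* (2.40), *CG31205* (2.28), *CG11779* (1.49), *BOD1* (2.03), *CG5026* (1.74), the unnamed probe 11583 (0.83), *Jhbp11* (1.81), *Rab32* (1.13), *Cpn* (0.76), *fit* (3.47), *ppk26* (0.85), *RpS21* (2.59), *pr* (1.30), *GstE6* (2.92), *GstE8* (2.05), *Hsc70-3* (0.73), *Acbp2* (3.66), *tobi* (1.06), *Cpr92F* (1.46), *Cpr49Ae* (0.71) and *Cpr72Ec* (2.26). It was negative for *CG42807* (-1.85), *CG1552* (-1.45), *lcs* (-2.85), *CG8539* (-2.06), *glob1* (-2.20) and *Pepck1* (-0.93). For *fit* the XX null arrays varied from -1.01 to 2.04, and second probes for *CG42807* and *RpS21* had XX differences of 0.15 and 0.07, neither past the threshold. A second probe for *CG5026*, with too few values for a test, read -0.22 to 0.35 in pseudomales, against -0.05 and 0.13 in nulls. For *Cngl* and *RpL28*, above, second probes also disagreed, at -0.09 for *Cngl*, and at 0.15 and 0.16 in nulls for *RpL28* with pseudomales from -0.10 to 0.33, untested.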

How the results depend on the processing

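In XX heads 401 probes passed. With dye orientation as a covariate 1023 did (447 higher, 576 lower, so that 43.7% of calls were higher against 31.4%), at a threshold of 0.05 177 did (42 and 135), and with only Cy3-mutant or only Cy5-mutant arrays, choices made after seeing the data, 645 and 697 did, with 2 arrays against 2. With the replicate block 588 passed in XX heads. In XY heads 2113 passed, 4147 with the dye covariate (2263 higher, 1884 lower), 1329 by the methods' t-test and 1045 at a threshold of 0.05. For XX less XY 144 passed, 294 with the replicate block (161 more positive in XX heads, 133 more negative), 478 with the dye covariate (278 and 200) and 78 at a threshold of 0.05. The cause of these shifts was not tested. Leaving out 1 array gave 241 to 369 probes in XX heads (241 without null replicate 1, 246 without *dsxD* replicate 2 and 259 without null replicate 3), 1026 to 1767 in XY heads (1026 without replicate 4 and 1248 without replicate 2) and 98 to 187 for XX less XY. The other XX settings gave 286 (methods' t-test, 118 higher and 168 lower) to 477. Of 79 named probes that passed, 0 changed sign in any setting; 25 no longer passed by the methods' t-test, 8 after arrays were set to the same distribution, 1 with the replicate block, 0 with the dye covariate, and 6 to 14 when 1 array was left out. Values of dim spots are missing, which limits what could be tested: *dsx* and *Cyp4d21* had no value in at least 1 genotype.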

Other observations

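Proteasome subunit genes moved together between the *dsxD* arrays. Averaged over the 27 probes with a value on every array, they ranged from -0.82 to 1.07 on *dsxD* arrays and from -0.03 to 0.44 on *dsx* null arrays. *Rpn3*, a subunit of the regulatory particle, read -0.66, 0.67, 1.25 and 1.72 in *dsxD* pseudomales, against 0.04, 0.36, 0.39 and 0.73 in nulls, and differed by 0.36 ± 0.42 (SE, limma adjusted p = 0.784). The group means of these genes therefore rest on *dsxD* arrays that disagree in sign.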
